A study of Mus musculus with 4 samples.

Results

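The sciatic nerve is wrapped by an outer connective tissue coat, the epineurium, whose fibroblasts lie outside the perineurium and build a loose collagen matrix. A type of fibroblast that carries Pi16, a secreted peptidase inhibitor, and Dpp4, a cell surface peptidase also called CD26, is found in the loose connective tissue of many organs and is known for progenitor-like behaviour in culture and for its place around vessels and at tissue boundaries. Such cells were sought here by their counts in the adult mouse nerve, and their transcripts 3 days after a nerve resection (3 DPI) were described beside those of the uninjured nerve.

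A barcode was taken as a member when it had at least 200 genes and at most 10% mitochondrial UMIs (unique molecular identifiers, each standing for 1 captured transcript), at least 2 summed UMIs of Pi16, Dpp4, Cd55 and Pcsk6, more of these than of the summed Comp, Fmod, Inmt, Gdf10 and C7 that mark another epineurial fibroblast, no UMI of Sox10, Pecam1 or Ptprc, and at least 3 summed UMIs of Col1a1, Col1a2 and Dcn. This gave 364 members at 3 DPI and 202 in the uninjured nerve, together 566 of the 4500 deposited barcodes of the 2 adult libraries and of 13200 in the series. Both libraries came from adult wildtype CD1 mice, without a transgene. For resections the paper describes isoflurane, buprenorphine before surgery, and ketoprofen or meloxicam before surgery and again the day after. No drug is described for the uninjured mice. The 3 DPI cells were taken from the distal segment after a resection on one side, and the uninjured cells from nerves of both sides. Both suspensions were made with collagenase and trypsin and cleared of myelin with beads. There was 1 library per condition, so no test between conditions was possible and none is given. The injury, the drugs given with the surgery, the mice, the day and the library cannot be told apart. How many mice were pooled was not stated. All intervals are 95% intervals for counting error only, exact Clopper-Pearson for shares, exact Poisson for levels and conditional exact for ratios of levels. Levels are counts per 1000000 UMIs (CPM) of the UMIs summed over a set of cells. Since the counts come from transcript 3′ ends with unequal capture, levels are compared between cells and not between genes.

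The 3 DPI library held 8123103 UMIs and the uninjured library 4513814, and the 2 shared 0 barcodes. The filter on genes and mitochondrial UMIs kept 2281 barcodes at 3 DPI and 1945 in the uninjured nerve. The members were 15.96% of the kept barcodes at 3 DPI (interval 14.48 to 17.53) and 10.39% in the uninjured nerve (9.065 to 11.83). Among kept barcodes that passed the collagen and Dcn minimum, they were 26.73% of 1362 at 3 DPI and 18.35% of 1101 in the uninjured nerve. Their median depth was 3151 UMIs and 1597 genes at 3 DPI and 2157 UMIs and 1108 genes in the uninjured nerve. A deeper cell reaches 2 UMIs more readily. When each kept barcode was thinned to 1000 UMIs before the rule was applied, the shares were 11.44% and 7.789%, still higher at 3 DPI. A further 70 barcodes at 3 DPI and 39 in the uninjured nerve met every other term but held a UMI of Sox10, Pecam1 or Ptprc.

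Pi16 led the marker sum in both libraries, with 71.95% of the summed marker UMIs at 3 DPI and 72.78% in the uninjured nerve. The members were chosen by these counts, which are therefore a description. The sum had a median of 5 UMIs at 3 DPI and 6.5 in the uninjured nerve. At 3 DPI 335 of 364 members (92.0%) had a Pi16 UMI, 165 (45.3%) a UMI of Dpp4, 155 (42.6%) of Cd55, which encodes a complement decay accelerator, and 76 (20.9%) of Pcsk6, a proprotein convertase. In the uninjured nerve 145 of 202 (71.8%) had Pi16, 121 (59.9%) Dpp4, 102 (50.5%) Cd55 and 55 (27.2%) Pcsk6. The share with Pi16 was thus higher and those with the other markers lower at 3 DPI, while Pi16 in all UMIs was 1157 CPM at 3 DPI and 3181 CPM in the uninjured nerve. At an equal depth of 1000 UMIs the Pi16 share was 58.88% at 3 DPI and 60.45% in the uninjured nerve, and that of Dpp4 was 26.17% and 42.94%. All 4 markers were found together in 30 members at 3 DPI and in 21 in the uninjured nerve, Pi16 together with Dpp4 in 147 and 87, and only 1 marker in 127 and 70.

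Transcripts that float free in the suspension are captured with every cell. As a measure of them, endothelial barcodes (at least 3 summed UMIs of Pecam1, Cdh5, Cldn5, Plvap and Esam and no Sox10, Ptprc or Pdgfra) were counted, with a median of 2689 UMIs at 3 DPI and 1990 in the uninjured nerve. Of these, 12.26% at 3 DPI and 7.305% in the uninjured nerve had a Pi16 UMI, and 1.415% and 3.275% a Dpp4 UMI. For Cd55, which endothelial cells may themselves express, the shares were 15.57% and 9.572%. The member shares are above these values by the choice of the members and are not compared with them. In the endoneurial cells described below a Pi16 UMI was found in 46.15% at 3 DPI and 6.838% in the uninjured nerve. Some of these cells were also members, and their median depth was 6645 and 2904 UMIs. For the Comp Gdf10 cells described below the Pi16 shares were 38.2% and 28.71%. How far such Pi16 UMIs bore on the member shares was not tested. Members at the threshold were less clear. Of the 73 members with exactly 2 marker UMIs at 3 DPI, 6.849% had a UMI of Pcolce2, an epineurial marker the rule did not use, beside 3.896% of the 154 barcodes with 1 marker UMI just outside. In the uninjured nerve, the shares were 7.273% of 55 and 4.444% of 90. Barcodes that met the collagen and Dcn minimum with 0 marker UMIs, whatever their Comp group sum, had shares of 7.003% of 714 at 3 DPI and 12.27% of 701 in the uninjured nerve. By Pcolce2 the members at the threshold were thus not set apart from barcodes without a marker UMI.

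The label was then checked against other genes, and it fitted most but not all members. At 3 DPI, 82 members had as many UMIs of the endoneurial markers Etv1, Wif1, Sox9, Osr2 and Meox1 as of the Pi16 group or more, and 14 had as many UMIs of the perineurial markers Slc2a1, Itgb4, Cldn1 and Krt19. In the uninjured nerve these numbers were 29 and 12. The members that were above both sums are called core members below, a division chosen after the members' values were seen. There were 279 core members at 3 DPI and 161 in the uninjured nerve, which is 12.23% and 8.278% of the kept barcodes. The 85 other members at 3 DPI were deep cells with a median of 9277 UMIs, beside 2381 in the core members, and held 49.25% of all member UMIs. The 41 others in the uninjured nerve had a median of 3566 UMIs, beside 1979 in the core, and held 27.43%.

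**Figure D1:**
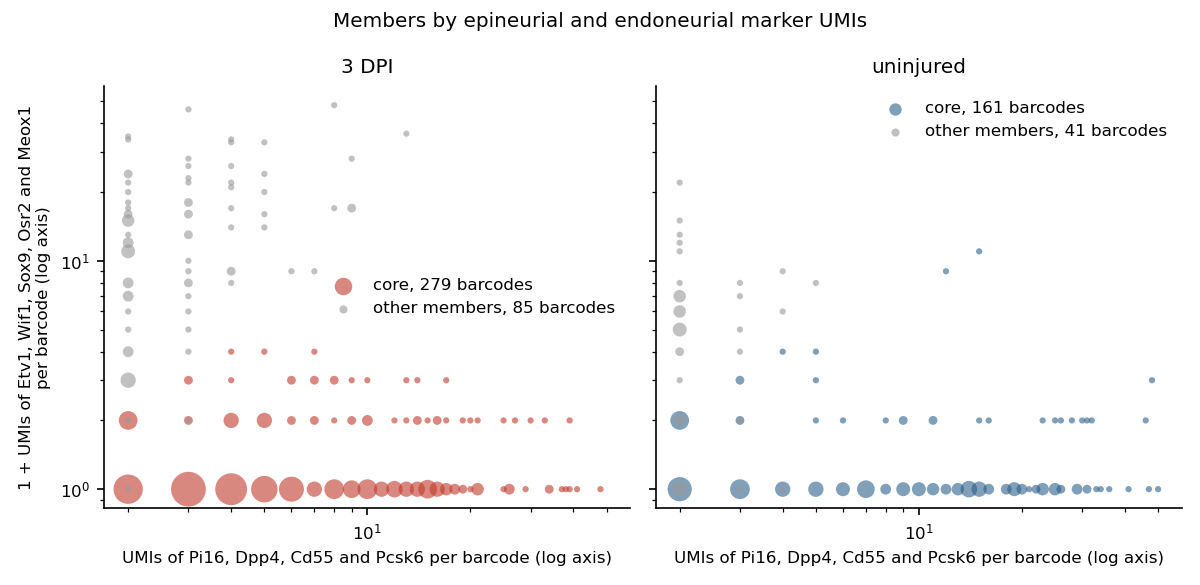
Summed UMIs of Pi16, Dpp4, Cd55 and Pcsk6 per barcode (horizontal axis) against 1 plus the summed UMIs of the endoneurial markers (vertical axis), both on a log scale, with 1 panel per library and larger circles where more barcodes share the same pair of sums. The 279 core members at 3 DPI and the 161 in the uninjured nerve are coloured and lie low, and the 85 and 41 other members are grey and reach higher endoneurial sums.

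The core members and the others differed in genes that the division did not use. At 3 DPI the level of Pcolce2, a procollagen processing enhancer, was 273 CPM in the core members and 2.306 CPM in the others. Dpt (dermatopontin) was at 1882 and 73.8 CPM, Clec3b (tetranectin) at 1798 and 39.2 CPM, and the guidance factor Sema3c at 761 and 35.7 CPM. The others were instead higher in Spp1 (9500 CPM beside 919 in the core), Timp1 (1954 beside 476) and Ccl2 (2519 beside 352). Pdgfra, the mesenchymal marker of the nerve, was found in both, at 350 CPM in the core and 289 CPM in the others. For the other members the genes therefore went against the name of an epineurial Pi16 fibroblast, and most results below are given for the core as well as, or in place of, all members.

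**Figure D2:**
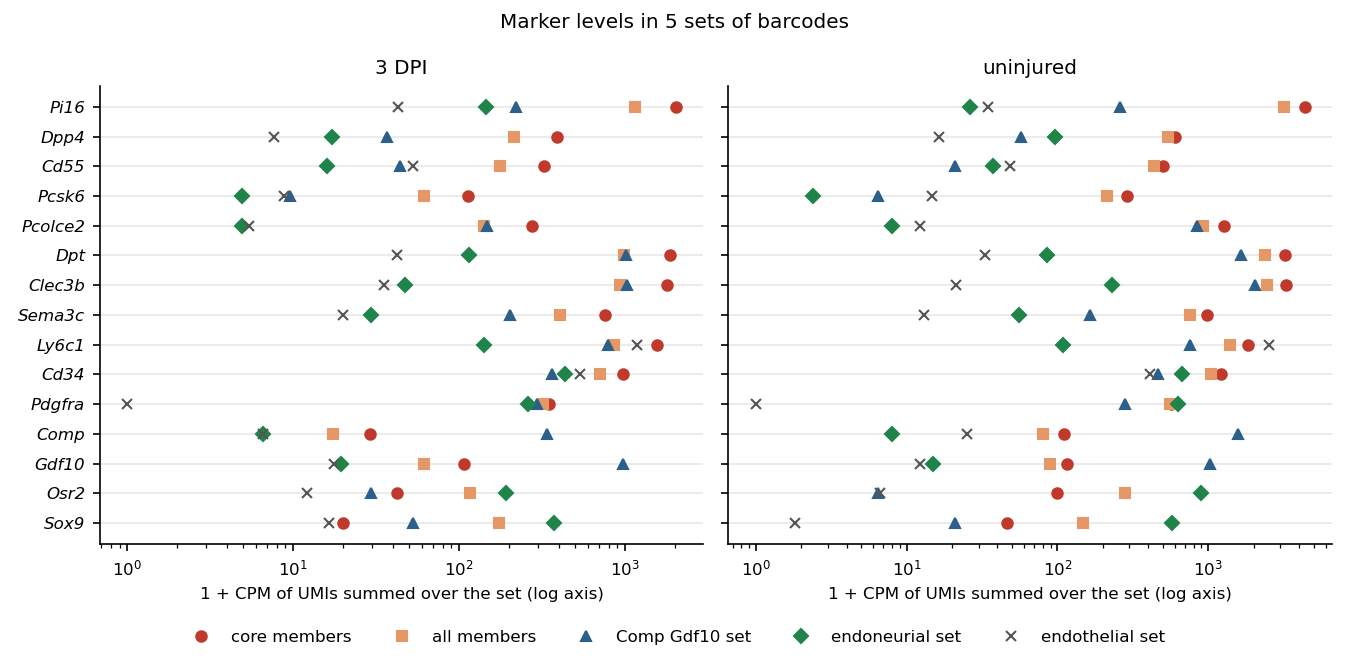
Levels of 15 marker genes (1 plus CPM, log axis) in all members, core members, Comp Gdf10 cells, endoneurial cells and the endothelial set, with 1 panel per library. Pcolce2 was at 273 CPM in the 3 DPI core members, 146.1 CPM in the Comp Gdf10 cells and 3.907 CPM in the endoneurial cells.

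The first question was which transcripts differed between the members of the injured and of the uninjured nerve. Of 4148 genes with at least 50 CPM in 1 library and at least 20 UMIs in both together, 446 (10.8% of those compared) were at least 2-fold higher at 3 DPI and 304 (7.33%) at least 2-fold lower. In the core members 370 of 4192 (8.83%) were higher and 262 (6.25%) lower. The 2 lists shared 246 higher genes (55.16% of the list for all members and 66.49% of the core list) and 181 lower genes (59.54% and 69.08%). The median log2 ratio of all genes was 0.14 in the members and 0.11 in the core, and a ratio is to be read relative to it. When the libraries were scaled by the median ratio in place of total UMIs, 348 genes were higher and 398 lower, so that the split between directions depended on the scaling.

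Several secreted matrix genes had large ratios at 3 DPI. Spp1, which encodes osteopontin, was at 5145 CPM at 3 DPI and 89.8 CPM in the uninjured members, a ratio of 57.3 (42.7 to 78.9). In the core it was at 919 and 19.7 CPM, a ratio of 46.7 (22.6 to 116). The metalloproteinase inhibitor Timp1 was at 1204 and 34.7 CPM, a ratio of 34.7 (21.6 to 59.7), and the ratio in the core was 11.3. The adhesion-modulating glycoprotein Tnc was at 329 and 10.2 CPM, with a ratio of 32.3 (13.8 to 99.8) in the members and 13.0 in the core. Means of per-cell CPM gave Tnc smaller ratios of 7.78 and 3.905, and 1 barcode held 77 of its 580 UMIs at 3 DPI. Cthrc1, a secreted protein of injured and remodelling tissue, was at 1155 and 77.5 CPM, with ratios of 14.9 (10.8 to 21.1) and 12 (8.13 to 18.5). These genes were higher in both sets of cells, by a smaller factor in the core when UMIs were summed. With means of per-cell CPM the Spp1 ratio was 42.85 in the members and 60.15 in the core. Those of Timp1, Tnc and Cthrc1 stayed smaller in the core.

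The shares of cells with a UMI also differed. At 3 DPI 62.1% of members had an Spp1 UMI and 9.90% in the uninjured nerve, beside 47.6% and 0.756% of the endothelial set. For Cthrc1 the shares were 60.7% and 7.92% of members and 30.7% and 6.55% of the endothelial set. At 1000 UMIs per cell they were 42.99% and 4.52% for Cthrc1 in members, with 13.95% and 3.003% in the endothelial set. In the core at that depth 34.18% had Spp1 at 3 DPI beside 24.42% of the endothelial set, a small gap. A Timp1 UMI was found in 42.65% of the 3 DPI core and 5.59% of the uninjured core, beside 28.77% and 1.259% of the endothelial set. For Tnc the shares were 18.64% and 1.242%, beside 21.23% and 0.7557%. At 1000 UMIs per cell the 3 DPI core and endothelial shares were 24.89% and 11.63% for Timp1 and 8.861% and 5.233% for Tnc. UMIs of Spp1, Cthrc1, Timp1 and Tnc were thus also common in endothelial barcodes at 3 DPI. The part of free RNA in their member levels was not tested.

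Several large ratios were smaller in the core than in all members when UMIs were summed. Fbn2, a fibrillin of developing elastic fibres, was at 390 CPM at 3 DPI and 6.12 CPM in the uninjured members, a ratio of 63.7 (21.7 to 310), but at only 89.5 and 5.62 CPM in the core, a ratio of 15.9 (4.26 to 134). The uninjured value rests on 3 UMIs in the members and 2 in the core, and with means of per-cell CPM the core ratio of Fbn2 was 32.9. The Wnt inhibitor Wif1 was at 342 and 18.4 CPM in the members and at 29.1 and 5.62 CPM in the core. Wif1 is one of the endoneurial markers that divided the core from the other members, so its lower core level follows in part from that division. The acute phase gene Saa3 was at 206 CPM at 3 DPI with no UMI in the uninjured members. With the uninjured group set to a floor of 3 UMIs its ratio was 33.7, with a lower interval limit of 27.2. In the core Saa3 was at 34.7 CPM, a ratio of 4.11 by the same floor, with a lower limit of 3.15. The chemokine gene Ccl2, which draws monocytes, was at 1420 and 102 CPM in the members and 352 and 42.2 CPM in the core, with ratios of 13.9 (10.5 to 18.8) and 8.36 (4.99 to 15.1). With means of per-cell CPM the Ccl2 ratio was 9.977 in the members and 10.29 in the core, so a smaller core ratio was not seen there.

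For other transcripts the ratio in the core was close to or above that in all members. Cd44, a hyaluronan receptor, was at 254 CPM in the 3 DPI core and 19.7 CPM in the uninjured core, a ratio of 12.9 (6.16 to 32.5), beside 9.23 in all members. The non-canonical Notch ligand Dlk1 was at 206 and 16.9 CPM, a ratio of 12.2 (5.50 to 33.7) beside 7.86, and with means of per-cell CPM its ratios were 4.31 and 4.28. At 3 DPI 1 barcode held 54 of the 226 Dlk1 UMIs of all members. The imprinted H19 RNA was at 1456 and 191 CPM, a ratio of 7.61 (5.96 to 9.86) beside 8.05. Lox, which crosslinks collagen and elastin, was at 1182 and 191 CPM, a ratio of 6.18 (4.83 to 8.02) beside 5.14. For Dlk1 only 7.89% of core members had a UMI at 3 DPI and 1.86% in the uninjured nerve, with 6.13% and 3.78% of the endothelial set, so its share of cells at 3 DPI stood close to the background. For H19 the core shares were 43.7% and 14.3%, with 23.6% and 1.01% of the endothelial set.

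**Figure D3:**
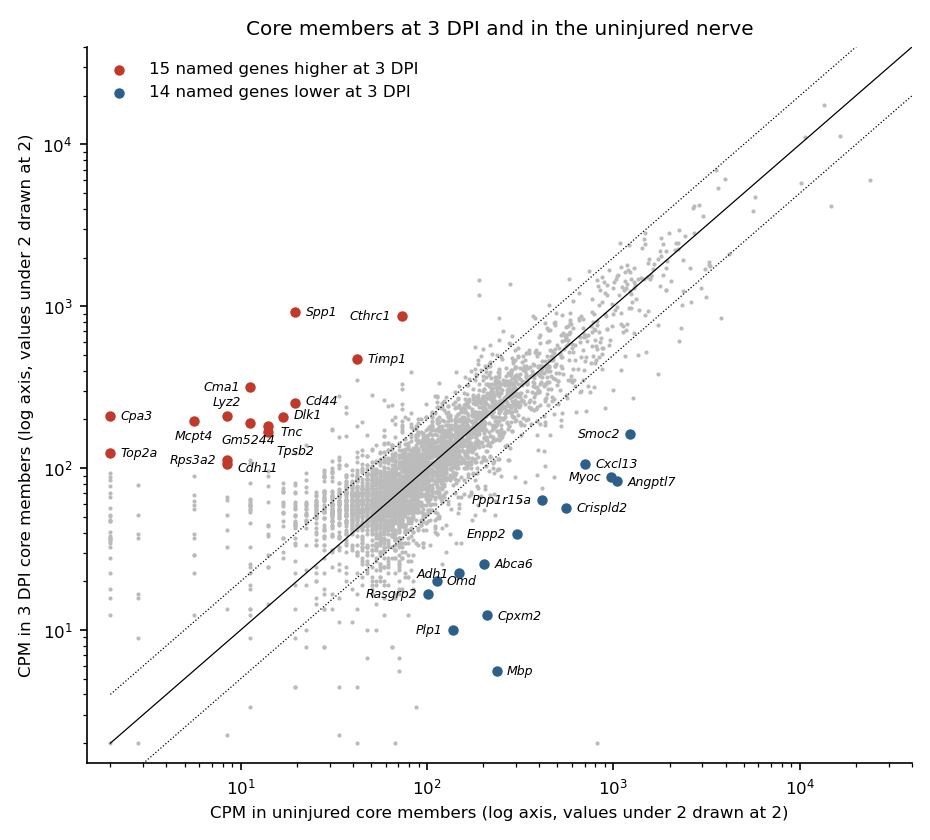
Levels in core members at 3 DPI (vertical axis) against the uninjured nerve (horizontal axis), in CPM on log axes, with 1 point per gene compared and dotted lines at 2-fold. The 15 named genes with the largest ratios lie above the line, with Spp1 at 919 and 19.7 CPM, and 14 of those with the smallest ratios below it, with Smoc2 at 162 and 1234 CPM.

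Among the genes with the smallest ratios at 3 DPI, Myoc (myocilin) was at 51.1 CPM at 3 DPI and 910 CPM in the uninjured members, a ratio of 0.0562 (0.0443 to 0.0706), and at 88.4 and 976 CPM in the core, with per-cell mean ratios of 0.123 and 0.157. Smoc2, a calcium-binding matrix protein, was at 280 and 2471 CPM in the members, a ratio of 0.113, and 162 and 1234 CPM in the core, a ratio of 0.131. In the uninjured nerve its level was higher in the endoneurial cells, at 5943 CPM. Cxcl13, a chemokine for B cells, was at 54.5 and 512 CPM in the members and 106 and 703 CPM in the core, a ratio of 0.151 (0.118 to 0.192). Gsn, which encodes the actin-severing and also secreted gelsolin, was at 3619 and 19819 CPM in the members, a ratio of 0.183, and 6007 and 23702 CPM in the core, a ratio of 0.253 (0.245 to 0.262). A Gsn UMI was found in 97.2% of the 3 DPI and 99.0% of the uninjured members, and at 1000 UMIs per cell in 82.24% and 98.87%, beside 19.19% and 44.74% of the endothelial set.

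The same was seen for Cpxm2, a carboxypeptidase-like protein without known enzyme activity (17.03 and 331 CPM, a ratio of 0.0515), and the transporter Abca6 (47.1 and 394 CPM, 0.120). In the core Angptl7, an angiopoietin-like secreted protein, was at 82.8 and 1043 CPM, Crispld2 at 57.1 and 554 CPM and Enpp2, which makes lysophosphatidic acid, at 39.2 and 304 CPM. Sfrp5, a Wnt antagonist, was at 39.8 and 686 CPM in all members but at 0 and 67.5 CPM in the core. Apod, a lipid carrier, had a ratio of 1.02 (0.997 to 1.04) in all members and was lower in the core, at 4153 and 14619 CPM, a ratio of 0.284 (0.272 to 0.296).

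Genes known to mark the Pi16 type were often lower at 3 DPI and in no case past 2-fold higher. Of 31 listed Pi16-type genes outside the rule 26 passed the level filter in the members, of which 12 were at least 2-fold lower and 0 higher, with a median log2 ratio of -0.87 beside 0.14 over all genes. In the core 27 passed, of which 5 were lower and 0 higher, with a median of -0.40 beside 0.11. Pcolce2, one of the 5, was at 273 and 1268 CPM in the core, a ratio of 0.215 (0.184 to 0.252), and at 140 and 922 CPM in the members. With means of per-cell CPM its ratio was 0.316 in the core and 0.305 in the members. At 1000 UMIs per cell a Pcolce2 UMI was found in 30.38% of the 3 DPI core and 60.87% of the uninjured core, beside 0% and 1.802% of the endothelial set. The level and the share of Pcolce2 were thus lower in the 3 DPI core than in the uninjured core. The part of free RNA in them was not tested.

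Other Pi16-type genes differed less once the core was taken. Dpt was at 1882 and 3245 CPM in the core, a ratio of 0.580 (0.538 to 0.626), Clec3b at 1798 and 3270 CPM, a ratio of 0.550, and Sema3c at 761 and 987 CPM, a ratio of 0.771. The stem cell antigen gene Ly6a was at 3624 and 3043 CPM, a ratio of 1.19 (1.11 to 1.28). Cd34 was at 970 and 1218 CPM and Ly6c1 at 1554 and 1845 CPM, with ratios of 0.797 and 0.842. The rule genes themselves, which chose the cells, were at 2026 and 4356 CPM for Pi16 and at 390.5 and 604.6 CPM for Dpp4 in the core.

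**Figure D4:**
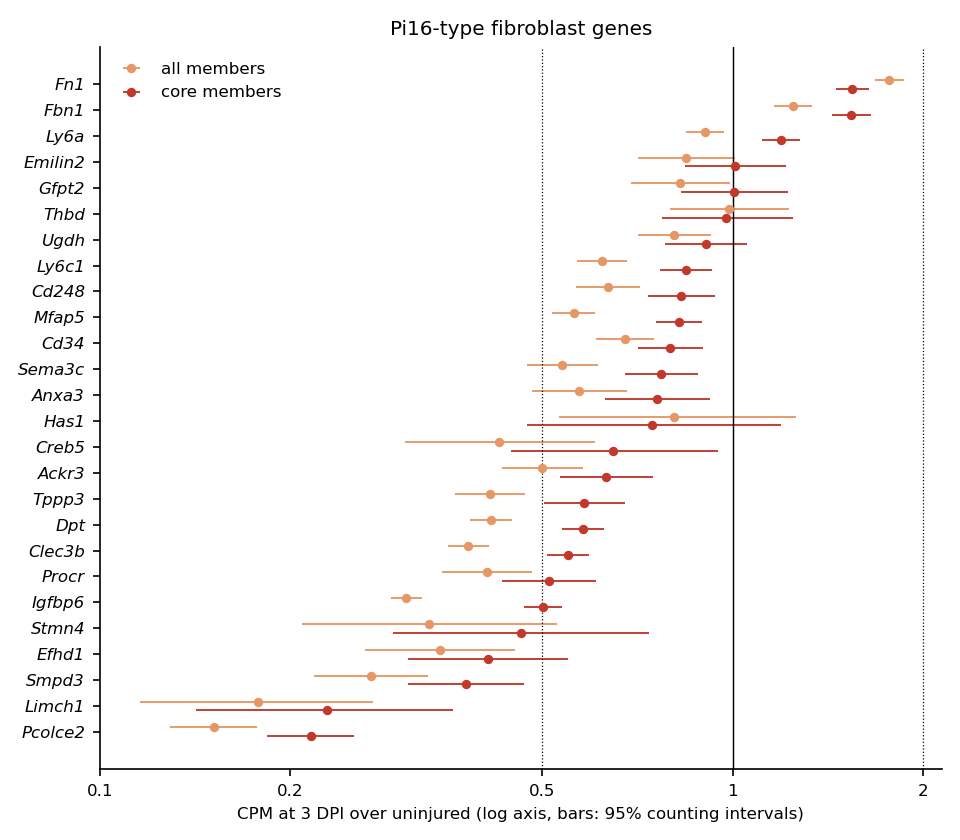
Ratio of the level at 3 DPI to that in the uninjured nerve (log axis) for 26 Pi16-type genes outside the rule, with points for all members and for core members and bars for the 95% counting intervals. Pcolce2 lies at 0.151 in all members and 0.215 in the core, and Ly6a at 0.903 and 1.19.

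Matrix genes were then taken by role. Of 23 matrix remodelling genes compared in the members 9 were higher and 3 lower, and of 22 in the core 7 were higher and 0 lower. For this and all further lists, the shares over all genes compared were 10.8% higher and 7.33% lower in the members. In the core they were 8.83% and 6.25%. Beside Spp1, Timp1, Tnc and Cthrc1, the core list held the metalloproteinase Mmp19 (2.97) and Thbs2, a thrombospondin (2.32). Fn1, fibronectin, was at 6126 and 3968 CPM in the core, a ratio of 1.54. Of 18 elastic fibre genes in the core 5 were higher and 1 lower. These were Fbn2, Lox, Loxl2 (2.16), Emilin1 (2.55) and Efemp2 (2.28), with Ltbp4 lower (0.441). Lox, Loxl2 and Efemp2 all take part in crosslinking or its assembly. The main fibre genes differed less, with Fbn1 at 1.54, Mfap5 at 0.823 and Fbln2 at 0.965 in the core.

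None of 15 collagen genes in the core was past 2-fold, and of 16 in the members only Col11a1, a fibrillar collagen of cartilage and growing tissue, was (206 and 30.6 CPM, a ratio of 6.73). Its ratio in the core was 5.17, where it did not reach the level filter. Col3a1 was at 0.876 in the members and 1.29 in the core, Col5a2 at 1.36 and 1.78 and Col6a3 at 1.91 and 1.83. Of 16 proteoglycan and hyaluronan genes in the core, Bgn (biglycan, 1654 and 737 CPM, a ratio of 2.25) and Cd44 were higher and Ogn (osteoglycin, 0.444) and Gpc3 (a glypican, 0.320) lower. Among 19 genes of protein folding and collagen modification in the core, the lysyl hydroxylase Plod2 (2.46) and the collagen chaperone Fkbp10 (2.36) were higher and 0 lower.

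Genes of the nerve bridge and of repair tissue were largely higher at 3 DPI. Of 8 listed, 7 were compared in the core and 6 were higher, with a median log2 ratio of 2.93. The genes were Dlk1, H19, Cthrc1, Tnc, Igf2 (80.6 and 11.3 CPM, a ratio of 7.16) and the imprinted Mest (2.54), while the matricellular Postn had a ratio of 1.52. In all members Mest was at 114 and 122 CPM.

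Dividing cells were found among the members of the injured nerve. At 3 DPI 47 of 364 members (12.91%) had a UMI of Top2a or Mki67, of which 22 had both, and in the uninjured nerve 0 of 202 did, which by the floor of 3 counts allows a share of cells with a UMI of up to 1.485% and by the exact interval up to 1.81%, and not a share of cells that express the genes. The median depth was 3151 UMIs in the 3 DPI members and 2157 in the uninjured members. Of the 47 cells, 26 were core members. At 1000 UMIs per cell the 3 DPI share was 7.788% and at 500 UMIs 3.631%, with none in the uninjured nerve at either depth. In the endothelial set these shares at 3 DPI were 18.87%, 10.47% and 8.416%. Top2a, a topoisomerase of dividing cells, was found in 9.89% of the 3 DPI members and in 12.26% of the 3 DPI endothelial set, so the members were not set apart from other cells of the library by it. The dividing members were deeper than the rest (a median of 7518 UMIs beside 2679). Of 13 cell cycle genes compared in the members 13 were higher at 3 DPI, and of 9 in the core 8 were. Top2a was at 124 CPM in the 3 DPI core with no UMI in the uninjured core. By the floor of 3 UMIs this was a ratio of 14.7, with a lower interval limit of 11.8.

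Secreted signals moved in both directions. Of 11 chemokine and cytokine genes compared in the core 3 were higher, namely Ccl2, Ccl8 (4.61) and Cxcl2, and Cxcl13 was lower. Cxcl2 was at 70.5 CPM at 3 DPI with no UMI in the uninjured core, a ratio of 8.36 by the floor of 3 UMIs. Ccl7 was 2.01-fold higher in the members and had a ratio of 0.801 in the core, so that its direction depended on the cells taken. The cytokine genes Il33 (0.782) and Csf1 (1.03) were not past 2-fold in the core. Of 32 growth factor genes in the core 5 were higher and 6 lower, beside 8.83% higher and 6.25% lower over all genes. Among the higher were Igf2, the heparin-binding midkine gene Mdk (71.6 and 16.9 CPM, a ratio of 4.24), its relative Ptn (2.11), Angptl4 (2.31) and the matricellular Nov (2.02). Among the lower were Bmp4 (7.83 and 64.7 CPM, a ratio of 0.121, 0.0439 to 0.292), Wnt11 (0.334) and Sema3b (0.348, and 0.553 with means of per-cell CPM). Of 15 genes for secreted modulators 3 were lower in the core and 0 higher, and they included the Wnt antagonists Sfrp2 (608 and 2238 CPM, a ratio of 0.271) and Sfrp1 (0.349).

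Of 22 receptor genes in the core 3 were higher and 1 lower, where 8.83% of all genes compared were higher and 6.25% lower. The higher genes included the oncostatin M receptor Osmr (72.7 and 16.9 CPM, a ratio of 4.31, 1.88 to 12.2), the interleukin-1 receptor Il1r1 (2.21), and Il6ra was the lower one (0.383, and 0.649 with means of per-cell CPM). Pdgfra was at 350 and 568 CPM, a ratio of 0.617. Of 22 transcription factor genes only Runx1 was higher in the core (39.2 and 5.62 CPM, 6.96, 1.79 to 59.8, with 2 UMIs in the uninjured core), and Klf4 (0.425) and Osr2 (0.421, and 0.633 with means of per-cell CPM), which is also one of the endoneurial markers, were lower. Of 10 genes listed as complement in the core 1 was higher, the alternative pathway factor Cfb (3.05), and 1 lower, C1qtnf1 (0.439, and 0.597 with means of per-cell CPM). C1qtnf1 encodes a C1q-related secreted protein and not a complement component. C3 was at 2256 and 2233 CPM. Among 9 contractile and actin-linked genes the crosslinker Actn1 (5.57, and 2.99 with means of per-cell CPM), the tropomyosin Tpm1 (2.75, and 1.88) and Cnn2 (2.62) were higher. The smooth muscle genes Tagln (0.295) and Myl9 (0.315) were lower. Of the 131 UMIs of pericyte and smooth muscle markers in the uninjured members, 1 barcode held 47. Its part in the Tagln and Myl9 values was not tested, so they are not read as a split within the members.

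**Figure D5:**
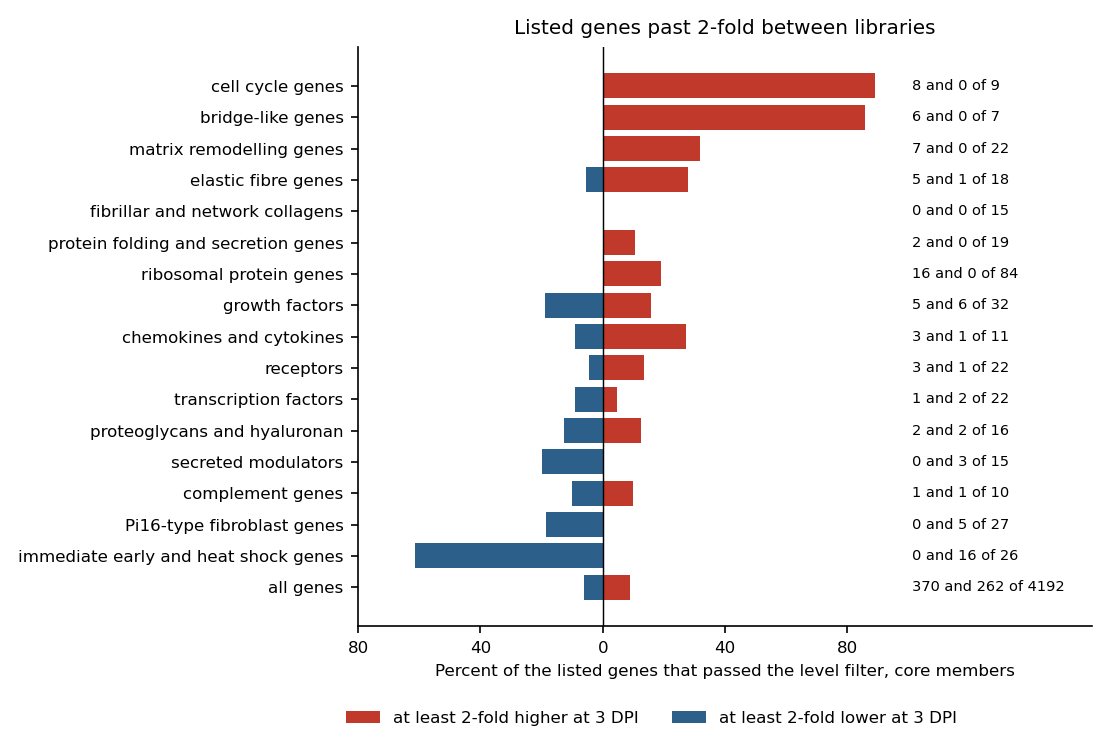
Percent of the listed genes that passed the level filter in core members and were at least 2-fold higher (to the right) or lower (to the left) at 3 DPI, with 1 bar pair per gene list and the numbers of genes at the right. Over all 4192 genes 8.83% were higher and 6.25% lower, beside 16 of 26 immediate early and heat shock genes that were lower.

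Many immediate early and heat shock genes were lower at 3 DPI. They encode factors and chaperones that cells switch on within minutes of stress, and enzymatic digestion of tissue is known to do so. Of 26 genes compared 14 were at least 2-fold lower in the members and 16 in the core, with 0 higher and medians of -1.09 and -1.27 (log2). Fos was at 847 CPM in the 3 DPI core and 3771 CPM in the uninjured core, a ratio of 0.225 (0.205 to 0.246), and Junb at 379 and 1735 CPM, a ratio of 0.219. The chaperone gene Hspa1a was at 74.96 and 413 CPM, a ratio of 0.181 (0.134 to 0.244), and its co-chaperone Dnajb1 at 103 and 427 CPM, a ratio of 0.241. Fos UMIs were found in 63.1% of the 3 DPI core and 78.3% of the uninjured core, and in 70.8% and 80.6% of the endothelial set. For Hspa1a the shares were 11.8% and 31.1% in the core and 23.6% and 63.0% in the endothelial set. For Fos and Hspa1a the core shares were thus below those of the endothelial set in both libraries. The lower shares of these genes at 3 DPI were seen in the endothelial set as well.

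The promoters of Fos and Hspa1a are shown because these genes moved together and each is known to answer a stress signal through a sequence before its start. They were read from RefSeq on GRCm38.p6 and run 250 bases before to 50 bases after the gene start. In Fos (chr12:85473640-85473939, plus strand) the capitals mark the core of a cyclic AMP response element, TGACGT, and in Hspa1a (chr17:34972107-34972406, minus strand) a pair of heat shock units, GAANNTTC.
Fos: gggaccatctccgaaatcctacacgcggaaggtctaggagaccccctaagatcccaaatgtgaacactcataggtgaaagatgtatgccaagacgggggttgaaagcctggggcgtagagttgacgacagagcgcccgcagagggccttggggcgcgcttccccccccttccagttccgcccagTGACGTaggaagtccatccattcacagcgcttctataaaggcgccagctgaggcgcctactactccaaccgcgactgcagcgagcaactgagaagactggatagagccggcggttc
Hspa1a: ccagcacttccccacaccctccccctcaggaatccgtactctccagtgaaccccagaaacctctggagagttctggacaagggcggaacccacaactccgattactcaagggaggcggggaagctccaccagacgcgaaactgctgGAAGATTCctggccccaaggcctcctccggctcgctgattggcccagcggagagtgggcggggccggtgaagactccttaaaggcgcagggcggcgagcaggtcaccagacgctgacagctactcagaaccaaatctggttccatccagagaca
Both motifs were searched on both strands. TGACGT was found in 4 of the 22 listed genes with a promoter (18.2%, Atf3, Btg2, Dusp1 and Fos), in 15.3% of the 3075 genes compared that had one and in 8.37% of 27025 promoters. GAANNTTC was found in 6 of 22 (27.3%, Hspa1a, Hspa1b, Hspb1, Hspe1, Hsph1 and Jun), in 6.63% and in 9.04%. A match is a description and not a site in use. The promoters of Hspa1a and Hspa1b differ at 4 of 300 bases, and the genes are near-identical copies whose reads the counting could have split, so the value of each is uncertain.

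Markers of other cell types were counted over the same members. Immune markers summed to 377.6 CPM in 220 members (60.44%) at 3 DPI and to 24.49 CPM in 12 members in the uninjured nerve. Of the 14 immune markers 3 were at 0 at 3 DPI, with the lymphocyte genes Cd3g and Nkg7 among them, and 9 in the uninjured nerve, with C1qa, C1qb and Fcer1g among them. In the endothelial set of the same libraries they summed to 249.8 and 37.87 CPM, and in the whole libraries to 2366 and 180.6 CPM. Lyz2, a macrophage gene, was at 185 and 6.12 CPM in the members, and its part in the ratios was not tested. Schwann cell markers summed to 155 CPM at 3 DPI and 1098 CPM in the uninjured nerve, where 2 barcodes held 192 and 155 of 538 UMIs. The myelin gene Mbp was at 3.98 and 184 CPM, and 1 barcode held 33 of its 90 UMIs in the uninjured members. In the same way 2 barcodes held 352 and 277 of the 657 UMIs of the mast cell genes Mcpt4, Cpa3 and Cma1 at 3 DPI. Such genes are not read as genes of the members. Endothelial markers summed to 128.3 and 140.8 CPM. Those of pericytes and smooth muscle summed to 221.4 and 267.3 CPM in the members, where 1 uninjured barcode held 47 of 131 UMIs, and to 192.4 and 303.7 CPM in the core. Of 6 perineurial genes compared in all members 6 were lower at 3 DPI, and of 2 in the core 2 were. Of 83 ribosomal protein genes 19 were higher at 3 DPI and 0 lower, with a median log2 ratio of 0.59.

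The members were then set beside the other epineurial type in each library. Comp Gdf10 cells were found with the mirrored rule, 178 at 3 DPI and 209 in the uninjured nerve. Since both sets were cut from the same cells by their counts, the differences are a description. Of 2950 genes 31 (1.05%) were at least 3-fold higher in the members in both libraries and of 2752 genes 23 (0.836%) at least 3-fold lower. For the core, 41 (1.36%) were higher and 20 (0.727%) lower. Few genes were thus past 3-fold between the 2 epineurial types. Pcolce2 was at 140 CPM in the members, 273 CPM in the core and 146 CPM in the Comp Gdf10 cells at 3 DPI, and at 922, 1268 and 844 CPM in the uninjured nerve.

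Pla1a, a phospholipase, was at 103 CPM in the members and 7.16 CPM in the Comp Gdf10 cells at 3 DPI, a ratio of 14.4 (6.07 to 45.0), and at 331 and 10.8 CPM in the uninjured nerve, a ratio of 30.5. Calcrl, the receptor chain for calcitonin gene-related peptide and adrenomedullin, had ratios of 9.99 and 10.4, and Efhd1 of 9.91 and 10.4. Edn1, the vasoconstrictor endothelin-1, was at 61.9 and 2.86 CPM at 3 DPI, where 2 UMIs in the Comp Gdf10 cells gave a ratio of 21.6 (5.84 to 181), and at 147 and 23.5 CPM in the uninjured nerve, a ratio of 6.27. The sphingomyelinase Smpd3 had ratios of 6.71 and 5.90. In the core the ratios of Pla1a, Calcrl, Edn1 and Smpd3 were larger in both libraries. Others of the list were lost in the 3 DPI core, such as Trf (1.04), Col2a1 (1.10) and Epyc (1.36). The Comp Gdf10 cells were higher in the complement gene C2 (253.5 beside 42.0 CPM at 3 DPI and 565 beside 106 CPM in the uninjured nerve, with ratios of 0.166 and 0.188), in the growth factor Clec11a (0.0957 and 0.0919) and in Spon1 and Fmo2.

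The endoneurial cells, with at least 2 UMIs of their markers and more than of either epineurial group, numbered 247 at 3 DPI and 234 in the uninjured nerve. Of these, 75 and 27 were also members, so the intervals of ratios for all members rest on sets that share cells. The core was set beside the endoneurial cells that were no members. Of 2950 genes 68 (2.31%) were at least 3-fold higher in the members in both libraries, and of 2657 genes 0 (0%) were lower. In the core 136 (4.52%) were higher and 60 (2.26%) lower, the last with Spp1 (0.123 and 0.110), Cp and Rasgrp2 among them. The 60 also hold Etv1, Sox9 and Meox1, whose counts helped to define both sets, so their direction was fixed by that choice. Cxcl13 was at 54.5 CPM in the members and 1.12 CPM in the endoneurial cells at 3 DPI, on 2 UMIs, with a ratio of 48.8 (13.2 to 409), and at 512 and 4.19 CPM in the uninjured nerve. Pcolce2 had ratios of 35.8 (17.1 to 89.9) and 132, and Sema3c ratios of 14.2 and 13.8. Sfrp2 was at 320 and 27.4 CPM at 3 DPI and at 1628 and 16.8 CPM in the uninjured nerve. Clec3b had ratios of 20.1 and 10.7, and the cell adhesion gene Cadm3 of 15.4 and 81.8. For all members 4 genes were past 3-fold against both the Comp Gdf10 and the endoneurial cells in both libraries, namely Cmah, Edn1, Lrrn4cl and Smpd3, and for the core 31 genes were, with these 4, Pla1a and Sema3c among them. Cmah, which makes a sialic acid, was at 56.8 CPM in the members at 3 DPI, beside 10.02 CPM in the Comp Gdf10 and 2.79 CPM in the endoneurial cells.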

How the data were processed

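Single cells of sciatic nerve were profiled by Drop-seq, a droplet method that counts transcripts by UMI. Following the Drop-seq Alignment Cookbook, the authors built digital gene expression matrices and deposited raw UMI counts per gene and barcode for a fixed number of barcodes per library (2500 at 3 DPI and 2000 uninjured) and without normalization. The submitters' processing notes name the build mm10. Gene symbols are those of the matrices, and library totals are given in the report.

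Counts were read in Python 3.11.15 with numpy 2.4.6, scipy 1.17.1 and pandas 2.3.3, and figures drawn with matplotlib 3.10.9. Members were taken by the rule in the report and UMIs were summed over members in each library. The members and gene lists were chosen with earlier results of these data known. No doublet caller was run, and barcodes with a UMI of Sox10, Pecam1 or Ptprc were left out. Genes compared between libraries had at least 50 CPM in 1 library and 20 UMIs in both, without the 15 rule genes, and the size rule was 2-fold. Between sets it was 3-fold in both libraries, with at least 50 CPM in the set that is higher. A group at 0 was set to a floor of 3 UMIs over the group. Named genes were the 15 largest and 15 smallest ratios with at least 100 CPM in the higher library, an interval away from 1 and the same direction in the mean of per-cell CPM, the 12 at each end against another set, and genes of the lists with the most UMIs or the largest change. For equal depth, cells were thinned at random to 1000 or 500 UMIs and shallower cells left out. Some genes that met these rules are not reported here. With 1 library per condition no test was run. The counting steps were tested on simulated data. Intervals and floors cover counting error only. The alternatives were other minimums of genes, mitochondrial share and marker UMIs, thinning before the rule, means of per-cell CPM, scaling by the median ratio, no level filter and leaving out the 5% of barcodes with the most UMIs. Core members, and members without those over 2% of UMIs from other cell types, were added after the members' values were seen.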

Additional observations from a re-analysis of the deposited data

Results flagged for a closer look

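For 10 genes the ratio of the members to another set of fibroblasts was past 2-fold in opposite directions in the 2 libraries, with both counting intervals away from 1. With 1 library per condition the difference between the libraries was not tested, and for some genes the direction changed when the core members were taken.

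Against the Comp Gdf10 cells, the transcription factor gene Ets2 had a ratio of 3.701 at 3 DPI and 0.3393 in the uninjured nerve, and in the core 3.516 and 0.3117. Timp1 had 2.107 and 0.3005, and Tgfbi, a secreted adhesion protein, 2.413 and 0.2975. In the core the 3 DPI ratios of these genes were 0.8322 and 0.4384, so that the opposite directions were not seen there. Nit2 had 0.47 and 3.016 and the small nuclear RNA gene Rn7sk 0.4758 and 3.62. Pcp4l1 had no UMI in the Comp Gdf10 cells at 3 DPI. Its 3 DPI ratio, 3.304 by the floor of 3 UMIs beside 0.2424 in the uninjured nerve, was 0.5209 in the core.

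Against the endoneurial cells, the growth factor gene Igf2 had a ratio of 3.237 at 3 DPI and 0.2356 in the uninjured nerve, on 5 UMIs in the uninjured members, and in the core 4.373 and 0.2598. Bmp2 had 0.436 and 5.357, with 0.4295 and 7.382 in the core, and the integrin gene Itga6 0.327 and 4.914, with 0.1432 and 1.281 in the core. The unnamed transcript model Gm26669 had 2.067 and 0.3925.

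The neonatal libraries, which no comparison above uses, also held barcodes that met the rule. They were 5.637% of 2306 kept barcodes (130, interval 4.731 to 6.658) in the library sorted by FACS and 0.6102% of 5736 (35, interval 0.4254 to 0.8476) in the one cleared with myelin removal beads.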

How the results depend on the processing

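The share of members, 15.96% at 3 DPI and 10.39% in the uninjured nerve, was higher at 3 DPI under each of the alternatives tried. It was 12.76% and 7.558% with at least 3 marker UMIs, 22.71% and 15.01% with at least 1, 11.44% and 7.789% when cells were first thinned to 1000 UMIs, 12.23% and 8.278% for core members, and 19.03% and 11.32% with at least 500 genes. The 446 higher and 304 lower genes became 1788 and 1616 without the level filter. The 31 genes above the Comp Gdf10 cells became 73 after thinning, 61 with means of per-cell CPM, 116 without the filter and 65 with core members and per-cell means. The 68 genes above the endoneurial cells became 45 with at least 1 marker UMI, 175 after thinning, 138 with per-cell means, 133 without the filter, 136 in the core and 177 in the core with per-cell means. The share with Top2a or Mki67 at 3 DPI, 12.91%, was 7.788% at 1000 UMIs and 3.631% at 500. The causes were not tested. The other 49 of 72 recomputed shares and counts moved less than counting error or 1.5 times. Of 390 recomputed ratios (30 named genes, 13 settings) 283 moved less than counting error, 103 more and 4 changed direction, all of mast cell genes held by few barcodes. These were Mcpt4, at 0.6128 with at least 1 marker UMI and 0.4858 after thinning, and Cpa3, at 0.1619 after thinning and 0.3703 without the 3 and 2 members with over 2% of UMIs from other cell types. No paired analysis was possible because there is 1 library per condition and no test.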

Other observations

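Of 12 genes of metallothioneins, glycolysis and glucose uptake compared in the members 6 were at least 2-fold higher and 2 lower, and of 9 in the core 2 were higher and 1 lower. Over all genes 10.8% were higher and 7.33% lower in the members and 8.83% and 6.25% in the core. Pkm, which encodes the last enzyme of glycolysis, was at 355.5 and 122.4 CPM in the members, with ratios of 2.90 in the members and 2.08 in the core. Ldha, the lactate dehydrogenase gene, was at 440.1 and 161.2 CPM, with ratios of 2.73 and 1.97. The metal-binding Mt1 was at 417 and 1371 CPM, with ratios of 0.304 and 0.349.

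Of 9 interferon response genes compared in the members 0 were higher and 2 lower, and of 11 in the core 0 were higher and 1 lower, with median log2 ratios of -0.13 and 0.01 beside 0.14 and 0.11 over all genes.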
